A study of Homo sapiens with 2 samples.

Results

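The genes described here encode the subunits of the proteasome, its activators and inhibitor, and the factors that assemble it. They were taken as every gene whose symbol in the authors' deposited comparison is PSM, a letter from A to G and a number, and were joined by Entrez number to the counts of both libraries. This gave 46 of the 17392 genes in that comparison, and 25702 genes were counted in all. The cells were K562, a human erythroleukemia line known to carry the BCR-ABL1 fusion, grown asynchronously in medium with serum. One culture was kept for 48 h in cabozantinib (XL184) at 1 µM, a tyrosine kinase inhibitor best known for blocking MET and the VEGF receptors, and the other for 48 h in DMSO, the solvent. Each condition is 1 library of total RNA, so the differences below have no replicates behind them and none was tested.

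The proteasome is the protease that degrades proteins tagged with ubiquitin. Its barrel-shaped core is made of stacked rings of PSMA (alpha) and PSMB (beta) subunits, and the cutting sites lie on the beta subunits PSMB5, PSMB6 and PSMB7. A cap of PSMC ATPases and PSMD subunits binds, unfolds and feeds in the substrates. Interferon-responsive cells can replace the cutting subunits with PSMB8, PSMB9 and PSMB10, which changes the peptides made for antigen presentation. Transcription of the constitutive genes is known to depend in part on NFE2L1, a factor that DDI2 cleaves and NGLY1 deglycosylates before it acts.

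The cabozantinib library held 25505289 counts over 16243 genes and the DMSO library 25025243 counts over 16631. Levels are given in CPM, counts for each 1000000 after TMM scaling, which sets the libraries to a common centre over most genes. A level of at least 1 CPM in either library made a gene measured, which held for 12536 genes. All 9 erythroid markers examined were measured, with a summed level of 37495 CPM in cabozantinib and 13471 CPM in DMSO, and 8 of the 9 were past 1.5-fold higher. Summed markers of other lineages came to 2.54 CPM in cabozantinib and 9.90 CPM in DMSO for 3 T cell genes, to 0.606 and 1.24 CPM for 3 B cell genes, to 9.04 and 16.9 CPM for 3 monocyte genes, and to 2.70 and 3.10 CPM for 3 fibroblast genes. For 3 epithelial genes the sums were 209 CPM in cabozantinib and 281 CPM in DMSO, nearly all from EPCAM and KRT8, and the B cell gene MS4A1 had no count in either library. The part of the erythroid shift in the proteasome values was not tested, and in bulk RNA fewer cells of a kind and less RNA per cell cannot be told apart.

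Promoter sequences are given for 4 members that the results turn on: PSMB5 as the main constitutive cutting subunit, PSMB9 as an immune subunit with almost no reads, PSMD1 as the measured member with the highest ratio, and PSMG4 as the one with the lowest. They are RefSeq sequences on GRCh38.p14, from 250 bases before to 50 bases after a start, read 5′ to 3′ on the gene's strand. Capitals mark a match, on either strand, to the antioxidant response element core TGACNNNGC that NFE2L1 and NFE2L2 bind, to the CCAAT box, or to the interferon-stimulated response element, taken as 2 GAAA units with any 2 bases between them.
PSMB5 (chr14:23035171-23035470, minus strand, the first of 2 listed starts): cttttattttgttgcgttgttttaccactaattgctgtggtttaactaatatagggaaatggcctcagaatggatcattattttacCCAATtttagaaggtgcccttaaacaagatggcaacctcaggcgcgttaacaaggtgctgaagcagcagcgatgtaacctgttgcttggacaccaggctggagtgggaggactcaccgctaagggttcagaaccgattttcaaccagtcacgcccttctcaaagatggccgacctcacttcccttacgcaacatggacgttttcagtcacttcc
PSMB9 (chr6:32853942-32854241, plus strand): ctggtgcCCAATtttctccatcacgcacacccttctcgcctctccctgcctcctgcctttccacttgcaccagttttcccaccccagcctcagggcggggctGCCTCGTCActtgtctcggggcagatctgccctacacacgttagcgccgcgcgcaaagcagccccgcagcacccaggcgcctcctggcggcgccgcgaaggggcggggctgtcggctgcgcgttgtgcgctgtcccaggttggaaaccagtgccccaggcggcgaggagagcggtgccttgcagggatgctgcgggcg
PSMD1 (chr2:231056617-231056916, plus strand): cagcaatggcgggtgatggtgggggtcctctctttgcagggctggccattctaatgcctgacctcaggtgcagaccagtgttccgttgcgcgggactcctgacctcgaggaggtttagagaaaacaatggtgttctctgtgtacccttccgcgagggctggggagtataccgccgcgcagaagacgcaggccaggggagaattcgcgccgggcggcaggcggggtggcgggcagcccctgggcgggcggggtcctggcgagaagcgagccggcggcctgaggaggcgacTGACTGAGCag
PSMG4 (chr6:3258697-3258996, plus strand): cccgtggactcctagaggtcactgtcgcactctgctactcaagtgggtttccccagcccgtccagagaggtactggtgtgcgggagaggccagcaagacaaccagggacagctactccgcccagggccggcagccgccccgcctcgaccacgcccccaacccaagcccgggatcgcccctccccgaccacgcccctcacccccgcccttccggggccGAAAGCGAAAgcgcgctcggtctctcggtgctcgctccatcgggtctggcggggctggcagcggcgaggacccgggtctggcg

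PSMB5 and PSMB9 each hold a CCAAT box, PSMB9 and PSMD1 each a TGACNNNGC, and PSMG4 the GAAA pair. The table had 49 promoters for 40 of the 46 genes. TGACNNNGC was found in 15 (30.6%) of these 49, against 13.3% of all 35116 promoters. CCAAT was found in 19 (38.8%), against 34.6% of all promoters. The GAAA pair was found in 7 (14.3%), against 3.57% of all. GAANNTTC, a pair of heat shock element units, was found in 0 of the 49 and in 6.77% of all promoters. Each motif was searched on both strands and no motif contains another. Among measured members, the 14 with a TGACNNNGC had a median log2 ratio of 0.11 (range -0.11 to 0.49). The 24 without one had a median of 0.16 (range -0.62 to 0.39), so the ranges overlapped. The medians were 0.15 for the 18 genes with CCAAT and 0.14 for the 20 without. For the GAAA pair they were 0.20 for 6 genes, PSMG4 among them, and 0.14 for the 32 without. A match describes the letters in the window and is not evidence of binding.

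Most proteasome genes differed little in RNA level between the cabozantinib and DMSO libraries. Of the 46 genes 44 were measured, and 43 of these (97.7%) lay within 1.5-fold (a log2 ratio of 0.58) of DMSO. The share within 1.5-fold was 78.5% of all measured genes and 87.5% of genes with a mean of 20 CPM or more. By the rule used for calls, a size of 1.5-fold with an exact 95% interval of the ratio of both counts that leaves out no change, 0 members were higher and 1, the assembly factor PSMG4, was lower. Among all measured genes 8.15% were called higher by that rule and 12.3% lower. At 2-fold 0 members were higher and 0 lower, where all measured genes gave 2.71% and 5.76%. At 1.2-fold (0.26) with the same interval, 8 members were higher and 1 lower, that is 18.2% and 2.27%, where all measured genes gave 23.1% and 23.4%. The share higher is near the background and gives no result about the members, and the share lower is below it. Most members are abundant, and among the 7657 genes with a mean of 20 CPM or more 5.98% were higher and 6.50% lower at 1.5-fold, while the 43 members in that range gave 0 and 1. At 1.2-fold those 43 members gave 7 higher and 1 lower, where the 7657 genes gave 24.9% and 18.7%. With the libraries scaled by total counts instead, 4 members were higher and 2 lower at 1.2-fold, where all measured genes gave 16.8% and 29.2%.

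The median log2 ratio of the measured members was 0.12, with quartiles of 0.00 and 0.22, and that of all measured genes was 0.01, with quartiles of -0.29 and 0.27. The standard deviation of the log2 ratios was 0.19 over the 44 members and 0.64 over all measured genes. The genes with a mean of 20 CPM or more had a standard deviation of 0.45 and a median of 0.05. Within 1.2-fold lay 35 of 44 members (79.5%), against 48.0% of all measured genes and 56.4% of genes with a mean of 20 CPM or more. The ratio was above 0 for 34 of the 44 members (77.3%) and for 51.0% of all measured genes. Among genes with a mean of 20 CPM or more it was above 0 for 56.0%, and for 76.7% of the members in that range. The counting interval lay above no change for 26 of the 44 members and below it for 6. Among all 12536 measured genes it lay above for 4360 and below for 4026. With total-count scaling the members gave 19 above and 14 below. Scaled by total counts, the members' median was 0.040 and 28 of 44 were above 0, against -0.07 and 42.0% for all measured genes, while DESeq2 size factors gave 31 and upper-quartile scaling 30 members above 0. All members together took 0.806% of the counts in cabozantinib (95% exact binomial interval 0.802% to 0.809%) and 0.787% in DMSO (0.784% to 0.790%). These intervals cover counting error only, and the distance between the shares has no replicate to set it against.

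**Figure D1:**
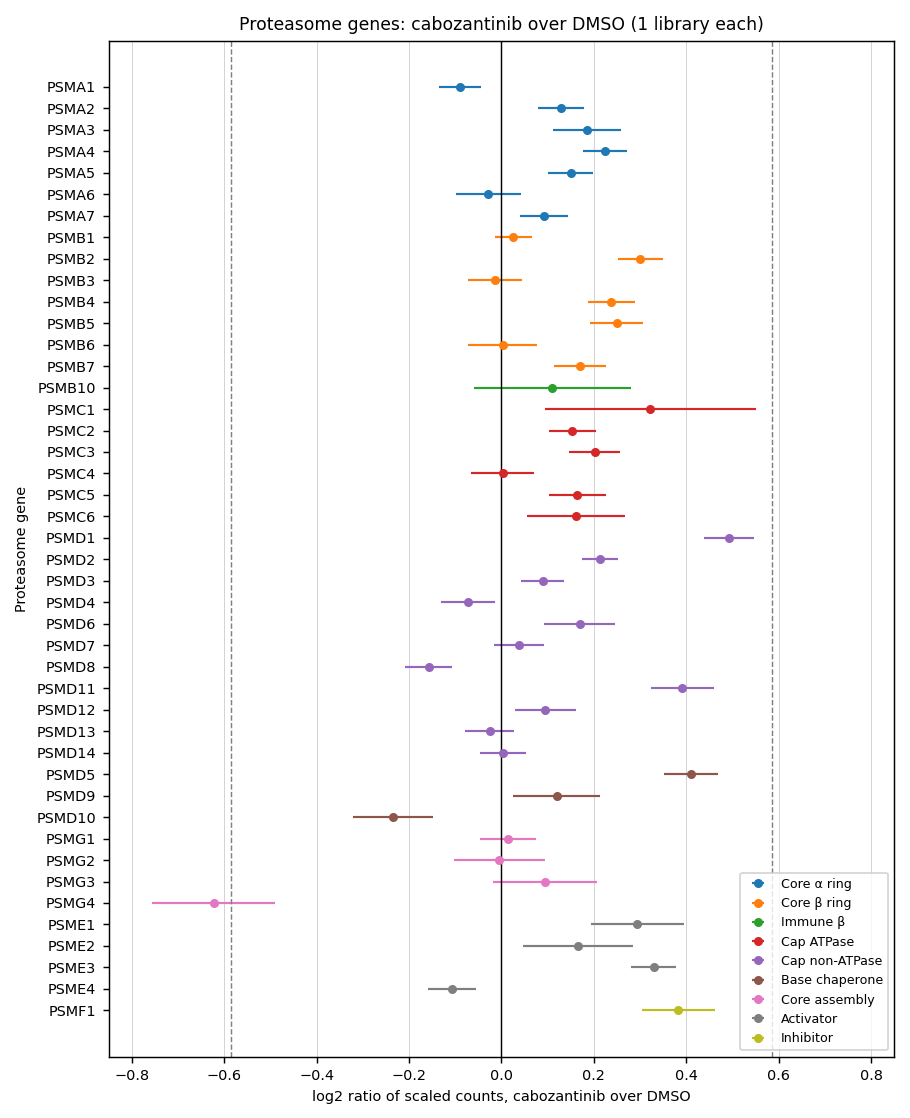
Log2 ratio of TMM-scaled counts, cabozantinib over DMSO, for the 44 measured proteasome genes by role. Points are single-library ratios, bars the exact 95% counting intervals, dashed lines 1.5-fold, and only PSMG4, at -0.62, lies beyond them.

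**Figure D2:**
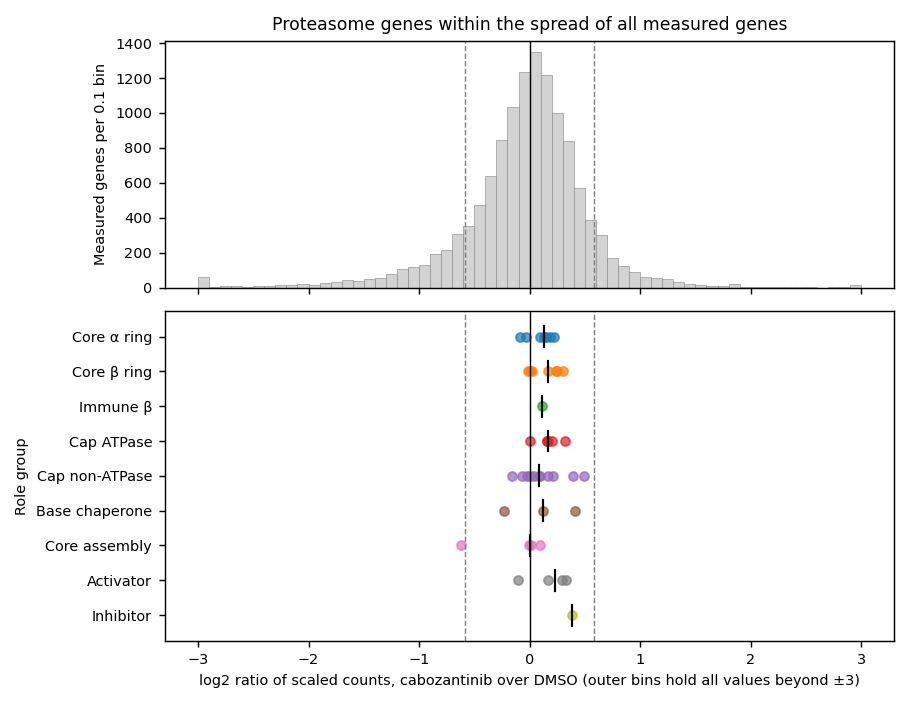
Upper panel, the number of measured genes (of 12536) in bins of the log2 ratio, cabozantinib over DMSO. Lower panel, each measured proteasome gene (point) and the median of its role group (black tick), on the same axis with 1.5-fold dashed, where all but 1 of the 44 points sit between those lines.

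The alpha ring of the core, which gates the entry to the barrel, moved little. Its 7 genes had log2 ratios between -0.09 and 0.22, with a median of 0.13. PSMA4 was the highest, with 7435 counts (300.2 CPM) in cabozantinib and 6621 counts (257 CPM) in DMSO, which is 1.17-fold (1.13 to 1.21). PSMA1 was the lowest, with 7270 counts (293 CPM) in cabozantinib and 8051 counts (312 CPM) in DMSO, a ratio of 0.939 (0.910 to 0.970). For 5 of the 7 the counting interval lay above no change and for 1, PSMA1, below it.

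The 7 constitutive beta genes ran from -0.01 to 0.30 with a median log2 ratio of 0.17. PSMB2, a beta subunit without a cutting site, on hg19 chromosome 1 at 36068739 to 36107143, was the highest. It had 7400 counts (299 CPM) in cabozantinib and 6251 (243 CPM) in DMSO, 1.23-fold (1.19 to 1.27). PSMB3, another subunit without a cutting site, was the lowest, with 188 CPM in cabozantinib and 190 CPM in DMSO, a ratio whose interval (0.951 to 1.03) holds no change. Among the cutting subunits, PSMB5, which cuts after hydrophobic residues and is the main target of bortezomib, had 5169 counts (209 CPM) in cabozantinib and 4525 (176 CPM) in DMSO. That is 1.19-fold (1.14 to 1.24). PSMB7, which cuts after basic residues, had 5460 counts (220 CPM) in cabozantinib and 5050 (196 CPM) in DMSO, 1.12-fold (1.08 to 1.17). PSMB6, which cuts after acidic residues, had 2878 counts (116 CPM) in cabozantinib and 2988 (116 CPM) in DMSO, with an interval of 0.952 to 1.05. The 3 cutting subunits therefore had ratios from none to slightly higher, all under 1.2-fold.

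Of the 3 immune subunits, PSMB8 and PSMB9 were close to absent in both libraries and PSMB10 was measured. PSMB8 (hg19 chromosome 6, 32808494 to 32812712), the counterpart of PSMB5, had 5 counts in cabozantinib and 3 in DMSO, a ratio with a counting interval of 0.337 to 11.2. PSMB9 (chromosome 6, 32821938 to 32827628), the counterpart of PSMB6, had 1 count in cabozantinib and 0 in DMSO, where a count of 0 allows up to 3. No direction can be read from either gene. PSMB10 (chromosome 16, 67968407 to 67970753), the counterpart of PSMB7, was the only measured immune subunit, with 579 counts (23.4 CPM) in cabozantinib and 558 (21.7 CPM) in DMSO. Its ratio of 1.08 had an interval of 0.959 to 1.21.

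Set per kilobase of exon, which makes genes of different length comparable, PSMB7 stood at 224 CPM per kilobase and PSMB10 at 23.9 in cabozantinib, and at 199 and 22.1 in DMSO. The constitutive level was thus 9.38 times the immune level in cabozantinib and 9.0 times in DMSO. PSMB5 stood at 144 CPM per kilobase in cabozantinib and 121 in DMSO. PSMB8 stood at 0.114 and 0.0657. With PSMB9 set at 3 counts in each library, PSMB6 was 1217-fold higher per kilobase in cabozantinib and 1264-fold in DMSO. In DMSO, where PSMB9 had 0 counts, this is a lower bound. In cabozantinib PSMB9 had 1 count, which allows more than 3, so 1217-fold is not a lower bound there. PSMA8 and PSMB11, core subunits known from testis and thymus, are not among the 46 genes and had 0 counts in either library, where a count of 0 leaves room for 3.

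**Figure D3:**
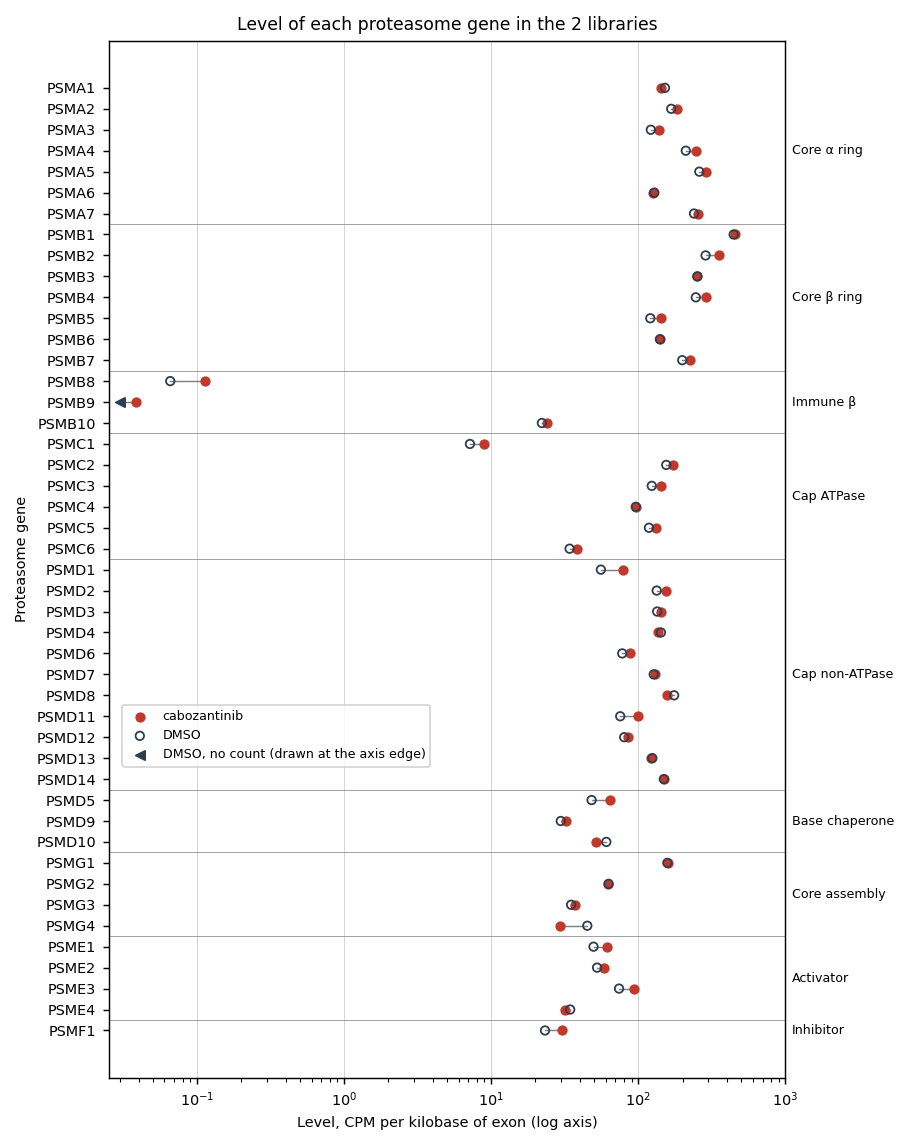
Level of each of the 46 proteasome genes in CPM per kilobase of exon on a log axis, in cabozantinib (filled red) and DMSO (open), 1 library each, grouped by role. PSMB8 and PSMB9 lie below 0.2, PSMC1 near 8, and the 14 constitutive core genes between 121 and 454.

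The 6 ATPases of the cap, which unfold the substrate, had a median log2 ratio of 0.16. PSMC4 was the lowest, with 3426 counts (138 CPM) in cabozantinib and 3557 (138 CPM) in DMSO and an interval of 0.956 to 1.05. PSMC1 (hg19 chromosome 14, 90722894 to 90738966) was the highest, with 352 counts (14.2 CPM) in cabozantinib and 293 (11.4 CPM) in DMSO. Its ratio of 1.25 had an interval of 1.07 to 1.46. The 4 others had ratios between 1.11 and 1.15.

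PSMC1 also stood apart in level. Although the ATPases form 1 ring with 1 copy of each, PSMC1 had 8.96 CPM per kilobase in cabozantinib and 7.17 in DMSO, while the other 5 ATPase genes ran from 38.1 to 172 in cabozantinib and from 34.1 to 155 in DMSO. PSMC6, singled out after its values were seen, was the lowest of those 5. Of the 50-base windows in annotated PSMC1 transcripts (GENCODE 29), 29.1% recurred in transcripts of genes elsewhere in the genome, chiefly the processed pseudogene PSMC1P1 (27.5%), the highest share of any member. At its own locus 78.0% of the PSMC1 windows also lay in transcripts of NRDE2, a neighbour annotated on the opposite strand in GENCODE 29, though the deposited annotation gave no exon overlap there. Sharing at the own locus was next highest for PSMA6 (55.0%) and PSMA2 (49.4%), which stood at 126 and 183 CPM per kilobase in cabozantinib. For windows elsewhere, PSMC6 followed at 24.7% and PSMD4 at 21.9%, and 27 members had no such window. PSMD4 stood at 136 CPM per kilobase in cabozantinib. The sources used here do not say how reads with several alignments were counted. The part of either kind of sharing in the low PSMC1 level was not tested, and PSMC1 is uncertain for these reasons.

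The 11 non-ATPase cap subunits spread further, with log2 ratios from -0.16 to 0.49 and a median of 0.09. PSMD1 (hg19 chromosome 2, 231921578 to 232037541), a large scaffold subunit of the cap base, was the highest of the 44 measured members. It had 6450 counts (260 CPM) in cabozantinib and 4773 (185 CPM) in DMSO, 1.41-fold (1.35 to 1.46), an interval that ends short of 1.5. PSMD8, a subunit of the lid, was the lowest, with 5994 counts (242 CPM) in cabozantinib and 6955 (270 CPM) in DMSO, a ratio of 0.897 (0.866 to 0.928). PSMD11, a lid subunit singled out after its values were seen, had 3874 counts (156 CPM) in cabozantinib and 3072 (119 CPM) in DMSO, 1.31-fold (1.25 to 1.38). PSMD2, the other large scaffold, was 1.16-fold (1.13 to 1.19) and the deubiquitinase PSMD14 had an interval of 0.968 to 1.04. Subunits of the same cap thus had ratios on both sides of no change. Taken by symbol, the 20 PSMC and PSMD genes, cap chaperones included, had a median log2 ratio of 0.14, equal at this precision to the 0.14 of the 14 constitutive core genes.

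The activators bind the core in place of the cap. PSME1 and PSME2 form the interferon-responsive ring, PSME3 a nuclear ring and PSME4 a single large chain. Their median log2 ratio was 0.23. PSME3 was the highest, with 7400 counts (299 CPM) in cabozantinib and 6128 (238 CPM) in DMSO, 1.26-fold (1.21 to 1.30). PSME1 had 71.2 CPM in cabozantinib and 58.1 CPM in DMSO, 1.23-fold (1.14 to 1.31), and its partner PSME2 had 48.8 and 43.5 CPM, 1.12-fold (1.03 to 1.22). PSME4 was the lowest, with 5622 counts (227 CPM) in cabozantinib and 6300 (244 CPM) in DMSO, a ratio of 0.928 (0.895 to 0.962). PSMF1, the inhibitor known as PI31, had 2881 counts (116 CPM) in cabozantinib and 2299 (89.2 CPM) in DMSO, 1.30-fold (1.23 to 1.38). Unlike PSMB8 and PSMB9, the interferon-responsive pair PSME1 and PSME2 was thus well detected in both libraries.

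Assembly factors were the group that spread most. PSMG4 (Entrez 389362, hg19 chromosome 6, 3259162 to 3268300, 4 exons), which pairs with PSMG3 in the chaperone that builds the alpha ring, had 755 counts (30.5 CPM) in cabozantinib and 1209 (46.9 CPM) in DMSO. It was 1.54-fold lower (1.40 to 1.69), so the interval of the only call reaches below 1.5-fold. Its partner PSMG3 had 1305 counts (52.7 CPM) in cabozantinib and 1272 (49.4 CPM) in DMSO, and PSMG1 and PSMG2, the other alpha-ring pair, had log2 ratios of 0.01 and -0.00. The counting intervals of those 3 genes hold no change.

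The chaperones of the cap base, which carry PSMD symbols but leave the finished particle, went different ways. PSMD5 had 5366 counts (217 CPM) in cabozantinib and 4202 (163 CPM) in DMSO, 1.33-fold (1.28 to 1.38). PSMD10, the oncoprotein gankyrin, had 1974 counts (79.7 CPM) in cabozantinib and 2416 (93.8 CPM) in DMSO, 1.18-fold lower (1.11 to 1.25). PSMD9 had a ratio of 1.09 (1.02 to 1.16). Over the 7 assembly factors the log2 ratios ran from -0.62 to 0.41 with a median of 0.01.

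Median levels per kilobase differed between the role groups, whose members overlapped. The median was 235 CPM per kilobase in cabozantinib and 205 in DMSO for the 14 constitutive core genes, 131 and 127 for the 11 non-ATPase cap subunits, 114 and 107 for the 6 ATPases, 59.9 and 51.1 for the 4 activators, and 51.5 and 48.1 for the 7 assembly factors. The inhibitor PSMF1 stood at 30.3 in cabozantinib and 23.2 in DMSO, and PSMB10 at 23.9 and 22.1. The assembly factor PSMG1, at 159 in cabozantinib and 158 in DMSO, was above core genes such as PSMA6, at 126 and 129. All measured genes had a median of 10.5 in cabozantinib and 10.4 in DMSO. PSMB1, a beta subunit without a cutting site, was the most abundant member, at 454 in cabozantinib and 446 in DMSO. Within the core, the lowest gene was PSMA6 in cabozantinib (126) and PSMB5 in DMSO (121). Over the 44 measured members the log2 level per kilobase in one library followed that in the other with r = 0.987 (Spearman 0.973), a description across genes that share both libraries and their lengths. The ratio had little relation to exon length (r = 0.21) or to mean CPM (r = 0.08) over the same 44 genes.

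The members lie on 17 chromosomes, 7 of them on chromosome 14 and 7 on chromosome 17. In the deposited annotation the exons of 6 members overlap those of a gene on the opposite strand. For PSMD7 the overlap covers 60.2% of its exon length, for PSMB4 39.6% and for PSMB7 39.5%. The genes opposite PSMD7 and PSMB7 held 48 and 278 counts in cabozantinib and 23 and 317 in DMSO, and the one opposite PSMB4 held 0. The strand setting of the counting is not given, so these 3 genes are uncertain to that extent.

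Genes that act with the proteasome or control it were examined as 5 lists of 43 genes, 39 of them measured. Of the 39, 1 was called higher (2.56%) and 6 lower (15.4%) at 1.5-fold, where all measured genes gave 8.15% and 12.3%. A filter of 5 CPM left 6 of these 7 calls, without TAP1, and a mean of 20 CPM left 5, without TAP1 and HLA-E. Their median log2 ratio was 0.13, against 0.01 for all measured genes.

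Among the regulators of proteasome genes, NFE2L1, the transcription factor that restores proteasome synthesis when the protease is blocked, was lower. It had 4545 counts (183 CPM) in cabozantinib and 9029 (350.4 CPM) in DMSO, 1.91-fold lower (1.84 to 1.98). NFE2L2, the related factor of the oxidative stress response, had 2434 counts (98.3 CPM) in cabozantinib and 4555 (177 CPM) in DMSO, 1.80-fold lower (1.71 to 1.89). DDI2, the protease that activates NFE2L1, had 879 counts (35.5 CPM) in cabozantinib and 487 (18.9 CPM) in DMSO, 1.88-fold higher (1.68 to 2.10). NGLY1, MAFG and MAFK, the deglycosylating enzyme and the small partners that bind DNA with these factors, had log2 ratios of 0.13, 0.01 and 0.14. The RNA of both factors was therefore lower. The 14 constitutive core genes, 6 ATPases and 11 non-ATPase cap subunits had 0 genes called at 1.5-fold in either direction. Of genes with a mean of 20 CPM or more, 5.98% were higher and 6.50% lower. At these shares groups this small can hold no call without differing from the rest, so nothing is read from the 0. A relation between the factors' RNA and the members' ratios was not tested.

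Of 11 proteasome-associated genes 0 were higher and 1 was lower (9.09%), where all measured genes gave 8.15% and 12.3%, so the share lower is near the background. AKIRIN2, which carries proteasomes into the nucleus, had 854 counts (34.5 CPM) in cabozantinib and 1343 (52.1 CPM) in DMSO, 1.51-fold lower (1.39 to 1.65). POMP, the chaperone of the core's beta ring, had 115 CPM in cabozantinib and 109 CPM in DMSO, a log2 ratio of 0.08. ADRM1, a ubiquitin receptor of the cap, had 134 CPM in cabozantinib and 100.2 CPM in DMSO, 1.34-fold (1.27 to 1.41). USP14, the deubiquitinase that binds the cap, was the highest of the list at a log2 ratio of 0.52 (0.47 to 0.58). UCHL5, also on the list, had 163 CPM in cabozantinib and 198 CPM in DMSO, 1.21-fold lower (1.17 to 1.27). Both USP14 and UCHL5 were singled out after their values were seen.

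None of the 6 ubiquitin and E1 genes and none of the 8 shuttle and segregase genes was called, with 0 higher and 0 lower in both lists. With 8.15% and 12.3% of all measured genes called, lists this short can hold no call without differing from the rest, and nothing is read from these counts. The ubiquitin gene UBB had 816 CPM in cabozantinib and 716 CPM in DMSO, a log2 ratio of 0.19, and was singled out after its values were seen. VCP, the segregase that extracts ubiquitin-tagged proteins, had a log2 ratio of 0.18. Medians were 0.11 for the ubiquitin and E1 list and 0.17 for the shuttles, close to the 0.12 of the proteasome members.

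Of the 8 measured antigen-processing genes 0 were higher and 3 lower (37.5%), where all measured genes gave 8.15% and 12.3%. With 8 genes this share is coarse, and of the 3 called genes TAP1 and HLA-E had a mean below 20 CPM. HLA-E, a non-classical class I molecule, had 169 counts (6.82 CPM) in cabozantinib and 523 (20.3 CPM) in DMSO, 2.97-fold lower (2.5 to 3.56). The peptide transporter genes were low in level, TAP1 with 26 counts in cabozantinib and 59 in DMSO (2.16-fold lower, 1.35 to 3.61) and TAP2 with 409 and 648 (1.52-fold lower, 1.34 to 1.73). The median log2 ratio of the measured genes on this list was 0.09. B2M had 321 CPM in cabozantinib and 347 CPM in DMSO, a log2 ratio of -0.11. ERAP1 and TAPBP had log2 ratios of 0.32 and 0.29. IRF1, a transcription factor of the interferon response, had a log2 ratio of 0.31. HLA-B had 3 counts in cabozantinib and 6 in DMSO, and NLRC5, a transcriptional activator of class I genes, had 6 counts in cabozantinib and 0 in DMSO. TAP1 and TAP2 lie beside PSMB8 and PSMB9 on chromosome 6, and of these neighbours TAP2 alone had more than 100 counts in either library.

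**Figure D4:**
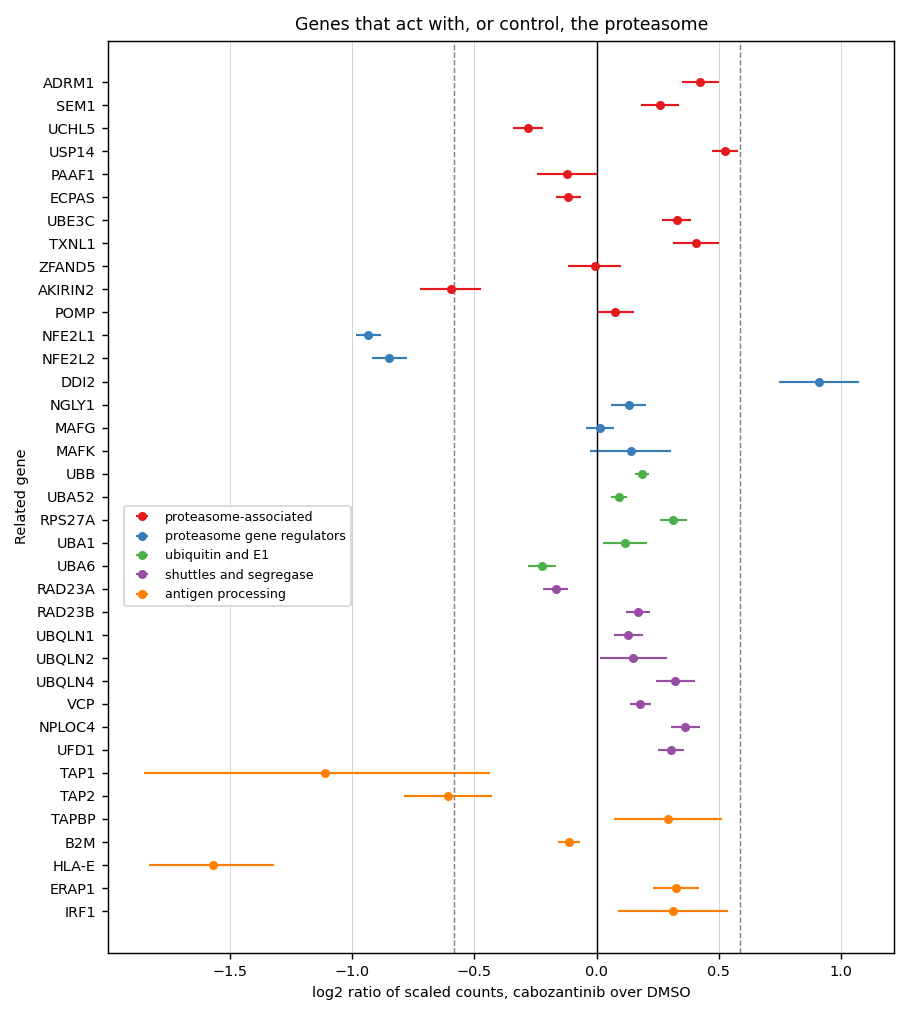
Log2 ratio of TMM-scaled counts, cabozantinib over DMSO, of measured genes on the 5 related lists, with exact 95% counting intervals as bars and 1.5-fold dashed, 1 library per condition. DDI2 is the only point beyond 1.5-fold on the right, and NFE2L1, NFE2L2, AKIRIN2, TAP1, TAP2 and HLA-E lie beyond it on the left.

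None of the 46 members (0) reached a probability of 0.95 of being differentially expressed in the authors' deposited table, where 4.66% of its 17392 genes did. The highest among the members in the authors' deposited table was 0.187, for PSMG4, whose shrunken fold there was 0.646. The authors' deposited table gave folds between 0.646 and 1.40 for the measured members. The counting intervals of the measured members reached from 0.04 to 0.23 to either side on the log2 scale, with a median of 0.06, so at this depth a 1.2-fold difference between these libraries exceeds counting error for most members, while differences between cultures have no estimate here.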

How the data were processed

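RNA was measured by sequencing in 1 cabozantinib and 1 DMSO library of K562. Per the labels' protocols, total RNA went into a strand-specific TruSeq library. The authors deposited raw counts for each Entrez gene, from reads aligned with Rsubread to hg19 per the file headers. GRCh37 also appears in the submitters' processing notes. Versions, strand setting and the treatment of multiple alignments are not stated there. The deposited comparison also holds a fold ratio and a posterior probability, a score from 0 to 1, by the authors. That fold was read as cabozantinib over DMSO because in 10269 genes with 100 counts in both libraries the log2 ratio of raw counts minus its log2 lay between -0.05 and -0.04. Its 4 per-library columns name no sample and were not used.

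Counts were scaled with TMM (edgeR 4.0.16 in R 4.3.3, factors 0.971 for cabozantinib and 1.03 for DMSO). Log2 ratios used a pseudocount of 0.5 and intervals are exact (Clopper-Pearson, 95%). With 1 library per group no p-value was computed. Calls needed 1.5-fold, an interval without no change, and 1 CPM in either library. Described in full were members past 1.5-fold, the 6 catalytic genes, and the highest and lowest of each role group. Of the related genes these were NFE2L1, POMP, ADRM1 and those past 1.5-fold. Other genes named with a value fell outside this rule, whether or not the text says so. Among them are PSMD2, PSMD14, VCP, B2M, ERAP1, TAPBP, IRF1, HLA-B and NLRC5. PSMD5, PSMD9 and PSMD10 were grouped with the assembly factors. The members and lists were chosen with earlier results of these data known. A few genes of the related lists are counted in the list totals but not reported here. Scripts were tested on simulated counts. Alternatives covered scaling (total counts, upper quartile, DESeq2 1.42.0 size factors), filters, pseudocount, fold threshold, the deposited fold and summed CPM. The 20 CPM filter and the removal of members with 20% or more of shared windows were chosen after seeing the data. Python 3.11.15, numpy 2.4.6, pandas 2.3.3, scipy 1.17.1 and matplotlib 3.10.9 were used.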

Additional observations from a re-analysis of the deposited data

How the results depend on the processing

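Scaling by total counts lowered all log2 ratios by 0.08, taking the median to 0.040 for all measured members, 0.055 for the constitutive core, 0.078 for the cap ATPases, 0.0050 for the non-ATPase cap subunits and -0.070 for the assembly factors. There 6 of the 44 members changed sign, and the median of all measured genes was -0.07. The assembly median was also below 0, at -0.00, under upper-quartile scaling. With no filter the median of the immune subunits was 0.71, because PSMB8 and PSMB9 enter with 5 and 1 counts in cabozantinib and 3 and 0 in DMSO. At a threshold of 1.2-fold 8 members were higher in place of 0, and 20 of the 39 related genes were called in place of 7, near the background of 23.1% higher and 23.4% lower. At 2-fold 0 members were lower in place of 1, and 2 related genes were called. At 1.5-fold PSMG4 remained the 1 lower member under all scalings, filters, the larger pseudocount and the deposited fold, with log2 ratios between -0.71 and -0.62, and no called gene reversed. No paired analysis was possible because each group has 1 library, and no library could be left out. PSMB8 and PSMB9 are too shallow for a direction.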
